A study of Mus musculus with 2 samples.

Results

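The genes described here load peptides onto MHC class I molecules: the light chain B2m, the non-classical heavy chain H2-T23, the peptide transporter subunits Tap1 and Tap2, the loading factor Tapbp (tapasin), the trimming enzyme Erap1, the immunoproteasome subunits Psmb8, Psmb9 and Psmb10, and the transactivator Nlrc5. The members were taken by gene name, as every probe set that the platform annotation assigns to one of these 10 genes. In all, 18193 genes had a probe set of their own. They have 18 probe sets, of which 16 belong to 1 gene and 2 are assigned jointly to H2-T23 and H2-T-ps. So 9 of the 10 genes had a value of their own, and H2-T23 had none apart from those shared probe sets.

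The arrays compare KLS cells, a sorted stem and progenitor fraction of mouse bone marrow (lin-, c-kit+, Sca+). One array held wild type cells and the other TIF1γ Δ/Δ cells (the Δ/Δ array below), taken from mice in which the gene of the transcriptional regulator TIF1γ (Trim33) was conditionally inactivated. There was 1 array per genotype, so every difference compares 2 arrays, with no replicate check and no p-value. The sources used here give no Cre driver, no age of the mice and no number of mice pooled.

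Class I molecules show fragments of the cell's own proteins to CD8 T cells and to natural killer cells. Proteasomes cut the proteins, the transporter built from Tap1 and Tap2 carries the peptides into the endoplasmic reticulum, Erap1 shortens them there, and tapasin holds an empty heavy chain with B2m at the transporter until a peptide fits. Interferons induce most of these genes, the immunoproteasome subunits replace standard catalytic subunits, and Nlrc5 binds with RFX, CREB and NF-Y proteins at class I promoters.

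Promoter windows are shown for 4 members, because Tap1 and Psmb9 share one stretch of DNA and were both lower on the Δ/Δ array, Psmb8 is the next gene along, and B2m and Erap1 lie elsewhere and differed in opposite directions. The sequences come from RefSeq on GRCm38.p6 and run from 250 bases before to 50 bases after the annotated start, 5′ to 3′ on the gene's strand. Capitals mark matches, on either strand, to the letters of an interferon-γ activated site (GAS, TTCNNNGAA), an interferon-stimulated response element core (GAAA, then 2 bases of any kind, then GAAA), the CREB-type core TGACG and the NF-Y motif CCAAT; none of the marked matches overlap. The windows are chr17:34187306-34187605 for Tap1, chr17:34197945-34198244 for Psmb8, chr2:122147437-122147736 for B2m and chr13:74639603-74639902 for Erap1, all on the plus strand.
Tap1: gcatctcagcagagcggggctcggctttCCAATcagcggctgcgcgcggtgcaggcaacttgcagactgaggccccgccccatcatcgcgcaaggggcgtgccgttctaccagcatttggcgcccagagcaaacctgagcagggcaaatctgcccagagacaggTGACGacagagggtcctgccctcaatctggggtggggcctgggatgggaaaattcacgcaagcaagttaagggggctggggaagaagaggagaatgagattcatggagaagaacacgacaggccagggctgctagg
Psmb8: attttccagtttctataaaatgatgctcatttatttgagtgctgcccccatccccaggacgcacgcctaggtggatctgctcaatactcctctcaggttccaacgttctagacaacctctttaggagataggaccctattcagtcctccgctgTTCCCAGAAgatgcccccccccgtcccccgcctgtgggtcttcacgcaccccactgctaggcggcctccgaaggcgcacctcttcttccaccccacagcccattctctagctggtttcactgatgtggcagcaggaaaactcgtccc
B2m: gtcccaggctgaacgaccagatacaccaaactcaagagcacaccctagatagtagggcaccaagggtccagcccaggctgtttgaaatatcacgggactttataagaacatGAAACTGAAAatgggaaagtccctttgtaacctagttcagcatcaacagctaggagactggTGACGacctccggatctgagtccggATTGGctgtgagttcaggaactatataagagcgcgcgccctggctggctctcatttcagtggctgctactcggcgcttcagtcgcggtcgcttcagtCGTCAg
Erap1: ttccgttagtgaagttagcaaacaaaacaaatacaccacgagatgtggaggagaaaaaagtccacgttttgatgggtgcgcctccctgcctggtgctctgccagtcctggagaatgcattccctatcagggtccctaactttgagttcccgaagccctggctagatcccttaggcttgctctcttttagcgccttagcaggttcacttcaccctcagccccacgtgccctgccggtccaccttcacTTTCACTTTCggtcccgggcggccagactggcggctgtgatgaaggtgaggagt

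The annotated starts of Tap1 and Psmb9 lie 226 bases apart and point away from each other, so their 300-base windows overlap over 275 bases and hold the same TGACG and CCAAT matches. The window of Psmb8 had the only GAS match among the members, starting at base -97. The response element core was found at -139 in B2m, at -124 in H2-T23 and at -4 in Erap1. Windows were at hand for 8 members, and 3 of these 8 held the response element core against 3.44% of all 32851 windows in the table. GAS was in 1 of 8 against 8.30%, TGACG in 3 of 8 against 20.8%, and CCAAT in 5 of 8 against 37.4%. Tap1 and Psmb9 count separately in these figures although they share their matches. A match describes letters in the window and says nothing of binding.

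Signals below are MAS5 intensities on a linear scale, and differences are log2 values of TIF1γ Δ/Δ minus wild type after removal of the median difference of measured probe sets (-0.024). A probe set counted as measured where it reached the array's median signal, 14.4 for wild type and 11.7 for Δ/Δ. A gene with several probe sets is represented by the brightest. Signals of different probe sets are not comparable with one another, so only the 2 arrays are set against each other. In bulk RNA of this kind, fewer cells of a type and less RNA per cell cannot be told apart.

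None of the 9 class I presentation genes with a value was 2-fold apart, where 8.55% of the 11724 genes measured on at least 1 array were. Of the 9, 6 were higher (Psmb8 among them by its brighter probe set alone) and 3 lower on the Δ/Δ array, beside 53.1% of all genes measured on both arrays that lay above 0. The median was 0.26, from -0.42 for Psmb9 to 0.63 for Tap2, and that of all 10365 genes measured on both arrays was 0.044. When each gene was given the mean over its probe sets and not the brightest, the members' median was 0.041 and that of all genes -0.055. That mean counts a probe set under the floor at the floor, as -0.28 where under it on both arrays. The 0.041 is the value of Tapbp, whose dim probe set is counted at the wild type floor. Neither median therefore compares measured probe sets alone. A single member, Tap2, passed 1.5-fold, a size reached by 28.7% of measured genes. The middle 50% of all genes lay between -0.32 and 0.40, and different probe sets of one gene scattered with an SD of 0.45, a disagreement of probe sets and not of mice. Of the 9 differences, that of Tap2 and, by a margin in the third decimal, that of Erap1 (0.455) were larger than this scatter (0.452).

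**Figure D1:**
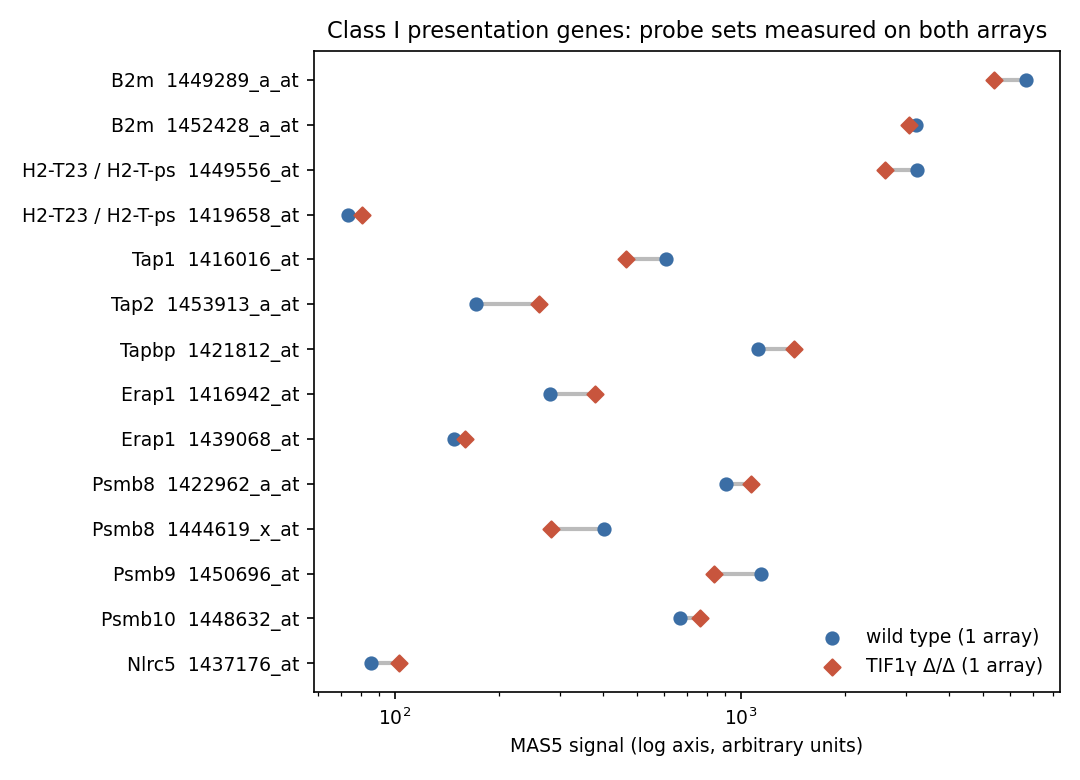
MAS5 signal of the 14 class I probe sets measured on both arrays (horizontal log axis), with 1 circle for the wild type and 1 diamond for the Δ/Δ array, joined by a line. The lines are short throughout; the longest is that of Tap2, from 172 to 261, and the 2 probe sets of Psmb8 point in opposite directions.

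B2m, the light chain that every class I molecule needs to reach the surface, was bright on both arrays. Its probe set 1449289_a_at read 6667 for wild type and 5388 for Δ/Δ (log2 -0.28). The other, 1452428_a_at, gave 3201 and 3054 (log2 -0.044). Both were lower on the Δ/Δ array, by 1.22-fold and 1.03-fold. The shared probe sets of H2-T23, whose product Qa-1 presents leader peptides of other class I chains, disagreed with each other. The brighter, 1449556_at, gave 3232 and 2603 (log2 -0.29), and 1419658_at gave 73.0 and 80.3 (log2 0.16). Since H2-T-ps shares both, neither value belongs to H2-T23 alone.

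The transporter subunits differed in opposite directions. Tap1, read by 1416016_at, read 608 for wild type and 465 for Δ/Δ (log2 -0.36, 1.28-fold lower). Its 3 further probe sets lay under the floor on both arrays and have no fold. Tap2, read by its single probe set 1453913_a_at, gave 172 and 261 (log2 0.63, 1.54-fold higher). The log2 difference of Tap1 minus that of Tap2 was -0.99, although the proteins work as a pair. Among all genes measured on both arrays, 22.6% had a difference at or below that of Tap1 and 87.5% one at or below that of Tap2.

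Tapbp, which bridges the transporter and the empty class I molecule, was higher on the Δ/Δ array: 1421812_at gave 1124 and 1426 (log2 0.37). Its other probe set, 1450378_at, was at 6.59, under the wild type floor, and at 11.7, at the floor of the Δ/Δ array, and so gives no bound. Erap1, which trims peptides to the length that the groove accepts, was higher in both probe sets. The brighter one, 1416942_at, read 280 and 378 (log2 0.45), while 1439068_at read 148 and 160 (log2 0.13). Nlrc5, the transactivator of class I genes, gave 85.4 and 103 in its single probe set 1437176_at (log2 0.30).

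The immunoproteasome subunits went both ways. Psmb9 (1450696_at), which takes the place of Psmb6, read 1143 for wild type and 837 for Δ/Δ (log2 -0.42, 1.34-fold lower), and 19.6% of all genes lay at or below it. Psmb10 (1448632_at), the partner of Psmb7, gave 667 and 763 (log2 0.22). Psmb8, the partner of Psmb5, was higher in its brighter probe set 1422962_a_at, at 907 and 1068 (log2 0.26), and lower in 1444619_x_at, at 402 and 283 (log2 -0.48). No direction can therefore be given for Psmb8. The mean of its probe sets was -0.11.

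The standard subunits were under 2-fold apart. Psmb5 gave 1787 and 1811 (log2 0.044), Psmb6 gave 1960 and 1324 (log2 -0.54) and Psmb7 gave 1154 and 1046 (log2 -0.12), each from 1 probe set. The immunoproteasome difference exceeded that of its standard partner by 0.22 for Psmb8 over Psmb5, by 0.12 for Psmb9 over Psmb6 and by 0.34 for Psmb10 over Psmb7. With the second probe set of Psmb8 the first of these was -0.53. The scatter between probe sets describes single values and not differences between 2 genes, so it gives no measure for these 4. Of the other 11 subunits of the 20S core, 10 were below 0, beside 46.9% of all genes measured on both arrays. None reached 2-fold, and the median was -0.22. Psma6 gave 5562 and 4949 (log2 -0.14), with 1 of its 3 measured probe sets higher. Psma3 gave 4922 and 4694 (log2 -0.045). Among 9 measured activator and assembly genes, also with none 2-fold apart, the median was 0.096. Psme1, a subunit of the interferon-inducible proteasome cap, gave 789 and 879 (log2 0.18), and the assembly factor Pomp gave 1259 and 837 (log2 -0.57). Psme2 had no probe set of its own here.

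**Figure D2:**
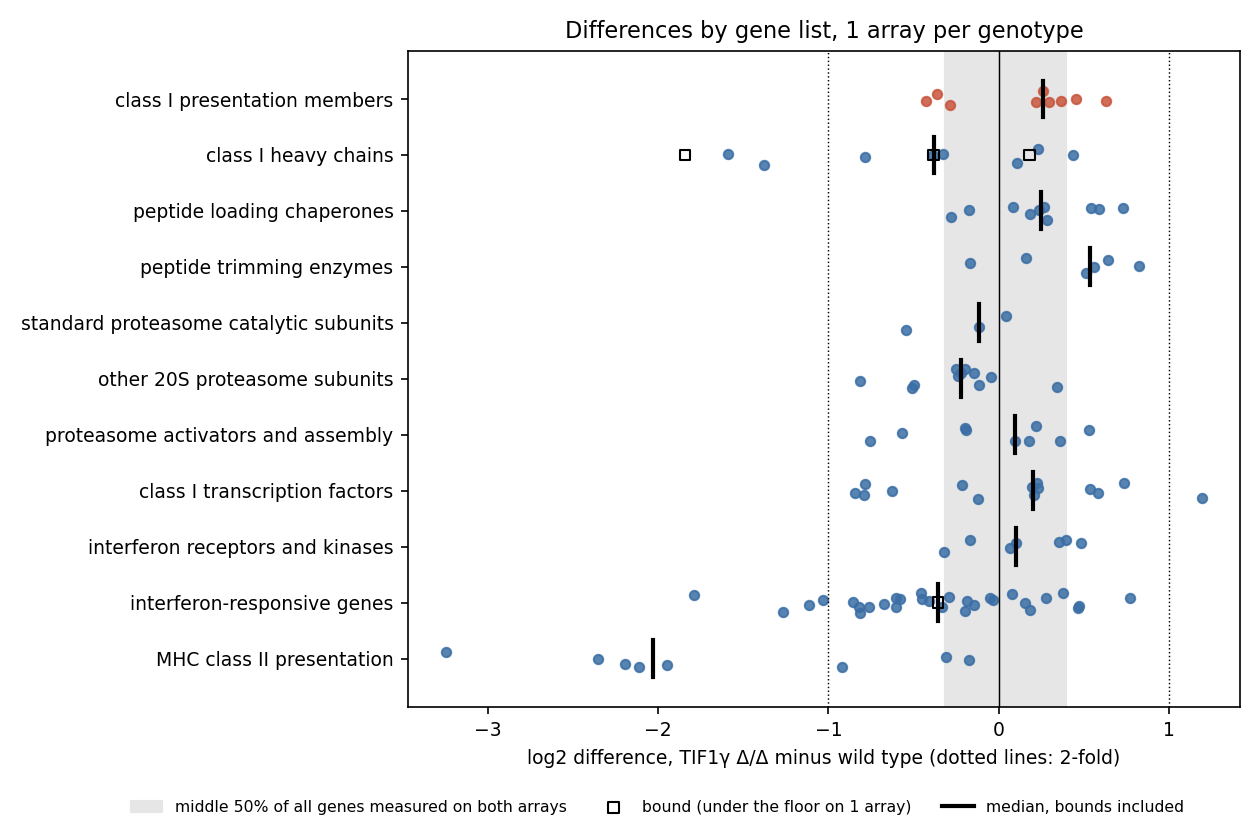
Log2 difference of each measured gene (horizontal axis) by gene list (rows), with a black line at the list's median, open squares for bounds, a grey band for the middle 50% of all genes and dotted lines at 2-fold. The 9 class I presentation genes (top row) all lie between the dotted lines at -0.42 to 0.63, and 5 of 8 class II genes (bottom row) lie at -1.95 or lower.

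Chaperones that fold and load class I chains had a median of 0.25, with 8 of 10 above 0 and none 2-fold apart. Of all genes measured on both arrays 53.1% lay above 0, the share for this list and the next. Hspa5, the main chaperone of the endoplasmic reticulum, gave 3262 and 4832 (log2 0.59), with 1 of its 3 measured probe sets lower. The translocon subunit Sec61b gave 4607 and 4023 (log2 -0.17). Other peptidases that cut peptides in the cytosol had a median of 0.54, with 5 of 6 above 0 and none 2-fold apart. That median was 0.12 with the mean over each gene's probe sets and 0.31 without probe sets shared between transcripts, where 1 gene was at least 2-fold lower. Ide gave 714 and 1242 (log2 0.82) and Blmh gave 1252 and 1377 (log2 0.16).

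Class I heavy chains and related molecules did not share one direction. At least 2-fold lower were 3 of 11 measured, where 6.01% of measured genes were 2-fold lower, and none was higher (2.53% of genes). The median was -0.38, a value set by a bound, and it was -0.099 under quantile scaling, -0.096 under loess scaling and -0.16 with a pseudocount of 16. These 3 were H2-Q10 (42.5 on the wild type array, under the floor on the other, at least 3.59-fold lower), Fcgrt (121 to 39.4, log2 -1.59) and Hfe (225 to 85.1, log2 -1.38). Fcgrt codes for the neonatal Fc receptor and Hfe for a regulator of iron uptake, and neither presents peptides. The classical chains, named after their values were seen, were under 2-fold apart: H2-K1 gave 2785 and 3701 (log2 0.43) and was higher in 4 of 4 measured probe sets. H2-D1 gave 2600 and 2761 (log2 0.11), with 2 of 5 measured probe sets higher and 3 lower. Probe sets of these chains often match several of them. Of 12 probe sets assigned jointly to several class I chains, 8 were measured on both arrays, 4 of them above and 4 below 0, from -0.64 to 0.55.

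Of 15 measured factors that act at class I promoters or in interferon signalling to them, 1 was at least 2-fold higher (2.53% of measured genes) and none lower, at a median of 0.20; the mean over each gene's probe sets placed 1 at least 2-fold lower and the median at 0.043, and the median was 0.081 under loess and 0.11 under quantile scaling. The higher one was Rfx5, a subunit of the RFX complex with which Nlrc5 works, at 142 and 320 in its 1 probe set (log2 1.19). Of the 15, 8 were above 0, 6 below and 1 had no bound, beside 53.1% of all genes measured on both arrays above 0. The other factors named here were picked after their values were seen. Above 0 lay Nfya (log2 0.74), Creb1 (0.59), Nfyc (0.54), Nfyb (0.21) and Rfxap (0.20), from the protein families that Nlrc5 binds with. Rfxank, Irf8, Irf7 and Irf9 lay below 0 in their brightest probe set. The RFX subunit Rfxank gave 50.2 and 28.5 (log2 -0.79), but 1 of its 2 measured probe sets was higher. The interferon regulatory factors Irf8, Irf7 and Irf9 had differences of -0.84, -0.79 and -0.63. The 7 interferon receptor and Janus kinase genes had a median of 0.10, with none 2-fold apart. Ifnar2 gave 451 and 354 in its brightest probe set (log2 -0.32), but 2 of its 3 measured probe sets were higher. Jak2 gave 260 and 337 (log2 0.40).

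Interferon-responsive genes outside the class I pathway were lower more than higher. Below 0 were 23 of 31 measured, with a median of -0.36, beside 46.9% of all genes measured on both arrays that lay below 0. At least 2-fold lower were 4 (6.01% of measured genes), and none was 2-fold higher; under quantile scaling 3 were lower and 1 higher. The 4 were the RNA-activated kinase Eif2ak2 (50.9 to 14.5, log2 -1.79), the GTPase Iigp1 (678 to 276, log2 -1.27), Ifit3 (33.7 to 15.3, log2 -1.11) and the antiviral enzyme Rsad2 (503 to 242, log2 -1.03). The Δ/Δ signals of Eif2ak2 and Ifit3 lay just above the floor, and with the floor at the 65th percentile, or a pseudocount of 16 in its place, 2 genes passed instead of 4. The class I members, many of them induced by the same cytokines, had their median on the other side of 0. It was 0.26, the value of the brighter Psmb8 probe set. With the mean over each gene's probe sets it was 0.041, the value of Tapbp with its dim probe set counted at the floor. The difference between these lists was not tested.

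**Figure D3:**
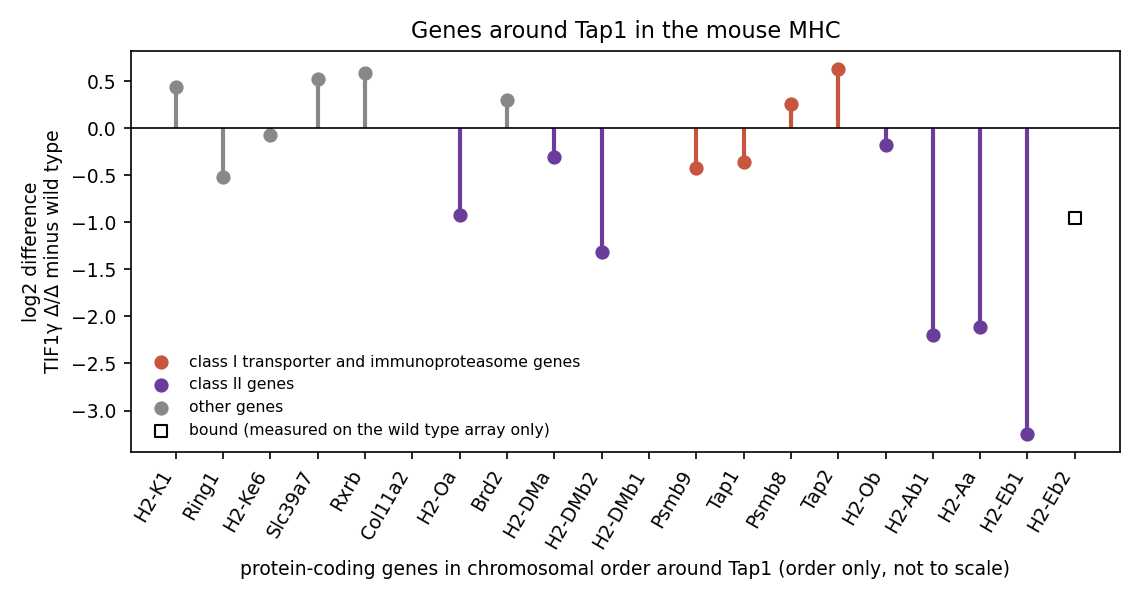
Log2 difference (vertical axis) of protein-coding genes in their order along the chromosome around Tap1; spacing is not to scale, and genes without a point were not measured. Psmb9 and Tap1 lie at -0.42 and -0.36, Psmb8 and Tap2 at 0.26 and 0.63, and the class II genes H2-Ab1, H2-Aa and H2-Eb1 at -2.20, -2.11 and -3.25.

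Psmb9, Tap1, Psmb8 and Tap2 stand next to each other inside the class II region of the MHC on chromosome 17, between H2-DMb1 on one side and H2-Ob on the other. In this row of 4, the divergent pair Psmb9 and Tap1 was lower on the Δ/Δ array by 1.34-fold and 1.28-fold, and their differences lay 0.064 apart. The next genes, Psmb8 and Tap2, had values of 0.26 and 0.63, the former with its probe sets in disagreement. Class II genes on both sides were lower. Towards Psmb9, H2-DMb2 (on no list, and named with its value known) read 63.0 and 24.8 (log2 -1.32), and H2-Oa had a difference of -0.92. On the side of Tap2, H2-Ob gave 433 and 377 (log2 -0.18). H2-Ab1 gave 734 and 158 (log2 -2.20, 3 of 3 probe sets lower), H2-Aa gave 4452 and 1013 (log2 -2.11, 4 of 4) and H2-Eb1 gave 1330 and 138 (log2 -3.25). These chains form the class II molecules that present peptides to CD4 T cells. With the invariant chain Cd74 (420 to 80.6, log2 -2.36) and the protease Ctss (2820 to 720, log2 -1.95), which prepare class II molecules for peptide, 5 of 8 measured class II genes were at least 2-fold lower. Among all measured genes the share was 6.01%. Without probe sets shared between transcripts the class II count was 2, with H2-Eb1 and Ctss unchanged. H2-Aa and H2-Ab1 then had no value, because all their probe sets are of that kind, as is the 1 measured probe set of Cd74.

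Neutrophil and macrophage, erythroid, B cell, and T and NK cell markers were mostly lower on the same array as the class II genes. So were most interferon-responsive genes and some heavy chains, while dendritic cell markers went both ways. The part of mature cells in these differences was not tested. No marker was listed at 0. Of 24 measured neutrophil and macrophage markers, 21 were at least 2-fold lower. Among all measured genes 6.01% were, the share for this list and those that follow. Summed over the list's 26 genes with a probe set, measured or not, the signal was 49611 for wild type and 6566 for Δ/Δ. Sums of the other lists were taken in the same way, and the brightest probe sets weigh most in them. Mpo, named with its value known, made the largest part on the Δ/Δ array (5497 and 3840). On that array 12 of the 24 reached the floor. S100a8 was at 9568 and 53.6, and S100a9 at 8147 and 9.92. Erythroid markers were 2-fold lower in 9 of 12 (summed signal 7968 and 3793), with Car2 at 2879 and 2016 and Car1 at 2154 and 673. B cell markers were 2-fold lower in 4 of 8 (783 and 248), with Vpreb1 at 269 and 43.1 and Cd79b at 182 and 128. T and NK cell markers were 2-fold lower in 4 of 11 (1834 and 1415), with Nkg7 at 1249 and 1090 and Klrd1 at 141 and 36.5. Dendritic cell markers were 2-fold lower in 2 of 7 (1264 and 1287), with Tcf4 at 519 and 608 and Flt3 at 464 and 534. Flt3 is also on the list of KLS and stem cell markers. Of the 7, 3 were above 0 and 4 below, and 4 reached the floor on the Δ/Δ array. The 2-fold lower ones, named with their values known, were Batf3 (39.3 for wild type) and Ccr7 (24.6), both under the Δ/Δ floor.

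The sorted cells' own markers were present on both arrays: Cd34 gave 1398 and 2326, Cd48 gave 933 and 1077, and Kit, the receptor used in the sort, gave 384 and 495. Of 11 measured markers of this list, 9 were above 0, beside 53.1% of all genes measured on both arrays. At least 2-fold higher were 2 (2.53% of measured genes), Gata2 (2.64-fold) and Tek (2.02-fold). The summed signal was 5643 and 7201, and Procr was at -0.60. Kit, Gata2, Tek and Procr were named with their values known. Ly6a, the other sort marker, had no probe set of its own here. The targeted gene Trim33 gave 379 and 172 in its brightest probe set (log2 -1.12), and the sources used here do not say whether that probe set lies in the deleted part. The 3' to 5' signal ratio of Gapdh was 7.86 and 7.38, and that of actin 5.14 and 5.54.

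**Figure D4:**
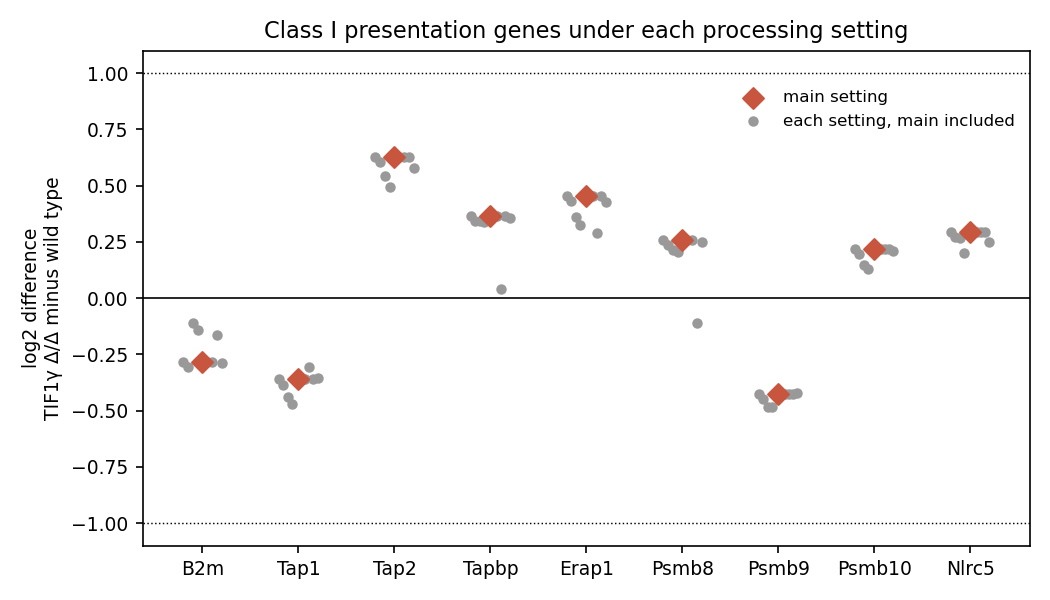
Log2 difference of each of the 9 class I presentation genes (vertical axis) under the main setting (diamonds) and under each of the scaling, floor, probe set and pseudocount settings (grey points), with dotted lines at 2-fold. No point reaches a dotted line, and Psmb8 is the one gene with points on both sides of 0, from -0.11 to 0.26.

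These small differences kept their sign in 8 of the 9 genes under every scaling, floor, probe set and pseudocount setting that gave a value. Psmb9 ranged from -0.48 to -0.42, Tap1 from -0.47 to -0.30 and B2m from -0.31 to -0.11. On the other side, Tap2 ranged from 0.49 to 0.63, Erap1 from 0.29 to 0.45, Nlrc5 from 0.20 to 0.30, Psmb10 from 0.13 to 0.22 and Tapbp from 0.041 to 0.37. The lowest value of Tapbp came from the mean of all its probe sets, which takes in the dim one. The value of Tap1 nearest 0 came from the same setting. There, probe sets under the floor are counted at the floor, as -0.28 where under it on both arrays. These 2 values therefore say nothing of the sign in the dim probe sets. A stable sign under other processing of the same 2 arrays is no replicate check.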

How the data were processed

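RNA of KLS cells was measured on 2 Affymetrix arrays, 1 per genotype; biotin-labelled cRNA came from 25 ng total RNA, per the labels' protocols. The deposited table holds linear intensities per probe set; the submitters' processing notes name MAS5. The trimmed mean was 100.0 on both arrays, so the authors' values were already scaled. The sources used here give no version or filter.

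From these intensities, 64 control probe sets and those of several genes or none were left out of gene values; symbols were updated by Entrez identifier to RefSeq (GRCm38.p6). The median log2 difference was removed, and each array's median signal served as floor. A gene under it on 1 array has only a bound, and on both arrays no fold. Calls are by size alone. The procedure was tested on a copy of the wild type array with known folds in bright genes and no added noise. That checks the calculation alone. Named genes are all members, list genes at least 2-fold apart (otherwise the 2 brightest), Psmb5, Psmb6, Psmb7, Psme1, Psme2 and Trim33, and the 2 brightest markers of each list; others are marked or stand in the gene order around Tap1. The members and lists were chosen with earlier results of these data known. A planned comparison of protein sequences was not run. Alternatives changed scaling, floor, probe set rule, pseudocount and threshold. The mean of all probe sets takes in those under the floor, counted at the floor. Computation used Python 3.11.15, numpy 2.4.6, pandas 2.3.3, statsmodels 0.14.6 and matplotlib 3.10.9.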

Additional observations from a re-analysis of the deposited data

How the results depend on the processing

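The median of the class I presentation genes stayed above 0 (0.041 to 0.26), and none of them reached 2-fold, under each scaling, floor, probe set and pseudocount setting; at 1.5-fold 1 of them counted. Without probe sets shared between transcripts, B2m, Psmb8 and Tap2 have no value. The mean of all probe sets put Psmb8 at -0.11, the activator and assembly list at -0.017 and the interferon receptor list at -0.16. Under the other settings the last 2 medians were above 0, though only at 0.011 and 0.00067 under loess scaling. Genes of all kinds at least 2-fold apart numbered 1002; they were 583 with the floor at the 65th percentile, 4805 with no floor, 641 with the mean of all probe sets, 592 with a pseudocount of 16, 3370 at 1.5-fold and 292 at 3-fold. Lower genes made up 70.4% of them, 80.8% with the mean of all probe sets, 62.3% under quantile scaling and 62.4% with the floor at the 65th percentile. Genes of the pathway lists 2-fold apart numbered 13, against 35 at 1.5-fold and 8 at 3-fold. In the mean of all probe sets, those under the floor count at the floor, as -0.28 where under it on both arrays. How much of the moves under that setting comes from this was not tested. Nor was any other cause, apart from the number of genes that the floor and threshold let through. No paired analysis was possible because each genotype has 1 array. Signals near the floor limit Eif2ak2, Ifit3 and H2-Q10.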
